A study of Arabidopsis thaliana with 6 samples.

Results

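The genes described are 38 members of 2 families of wall-loosening proteins of Arabidopsis thaliana, 15 alpha-expansins (EXPA) and 23 xyloglucan endotransglucosylase/hydrolases (XTH). They were taken by locus code from a table of 27827 probe sets, and all 38 codes were present. Of the members, 9 are known mainly from roots and were set apart from the other 29. These are the root-hair expansins EXPA7 and EXPA18 and the 7 genes XTH14, XTH17, XTH18, XTH19, XTH20, XTH21 and XTH31. Transcripts were measured in whole seedlings aged 17 days, on 3 arrays of wild-type accession Col-0 and 3 of naa20-1, a mutant that the design text describes as short of the active subunit of the NatB N-terminal acetyltransferase. All seedlings stood on 1x MS medium in short days with 8.5 h of light at 100 µE, and no treatment is given. Nothing in the labels says how the allele was made or that the 3 samples of a genotype were grown separately, so the p-values cover the scatter among these samples alone, and that may be technical.

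Growing plant cells enlarge when the wall around them yields to turgor. Alpha-expansins are secreted proteins that loosen the wall at acid pH without cutting its polymers. XTH enzymes cut xyloglucan, a glucan that coats cellulose, and join the cut end to another chain or, in a few members, to water. Both families are large, and their members divide the work by organ, cell type and stimulus. Auxin, brassinosteroid, light and touch are classic regulators of single members.

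Values are log2 expression after RMA, a procedure that equalises the arrays and gives 1 value per probe set, so a difference of 1 is a 2-fold difference. Every difference is naa20-1 minus Col-0 on the log2 scale, and ± is the SD over 3 arrays. Single genes were tested with limma, two-sided, with Benjamini-Hochberg adjustment over 27241 genes. Called means an adjusted p under 0.05. The number of arrays limits the precision. NAA20, the gene of the active NatB subunit, was at 8.79, 8.75 and 8.72 in Col-0 and at 8.10, 7.60 and 7.36 in naa20-1 (difference -1.07, SE 0.18, limma adjusted p = 0.0407). Its call did not hold with the replicate number as a block (adjusted p = 0.0542) or without single samples other than naa20-1 replicate 1 (adjusted p from 0.0770 to 0.135). NAA25, the auxiliary subunit gene, differed by 0.09 (SE 0.08, adjusted p = 0.669). Pearson correlations between arrays, across genes, ran from 0.990 to 0.995. In whole seedlings, fewer cells of a type and less RNA per cell cannot be told apart.

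None of the 38 members was called in either direction, where 1.15% of all genes were called, 0.767% lower and 0.382% higher in naa20-1. At an unadjusted p under 0.05 in limma there were 11 members (28.9%), 10 with a lower and 1 with a higher mean in naa20-1, against 14.2% of all genes (7.19% lower and 7.02% higher). The difference was below 0 for 25 members and above 0 for 13, with a median of -0.09, while 48.8% of all genes lay below 0 and their median was 0.01. The groups did not overlap in 14 members (36.8%), against 21.0% of all genes. In 13 of them (34.2% of the members) all 3 naa20-1 values lay below all 3 Col-0 values, against 10.5% of all genes. In the other, XTH27, they lay above, against 10.6% of all genes. Among the 13 lower members, the signals of XTH17 and XTH18 were dim. No member differed by as much as 2-fold. Without naa20-1 replicate 3, 1 member was called (EXPA15), against 0.723% of all genes, and 14 were at an unadjusted p under 0.05, against 14.1%. In that setting 24 differences were below 0, against 48.4% of all genes, and 15 members had all naa20-1 values below Col-0, against 15.9%. Without naa20-1 replicate 1, the array whose values departed from the common set in the table, no member was called, against 0.635% of all genes, and 14 were at an unadjusted p under 0.05, against 13.6%. There 25 differences were below 0, against 49.6%, and 16 members had all naa20-1 values below Col-0, against 16.0%.

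**Figure D1:**
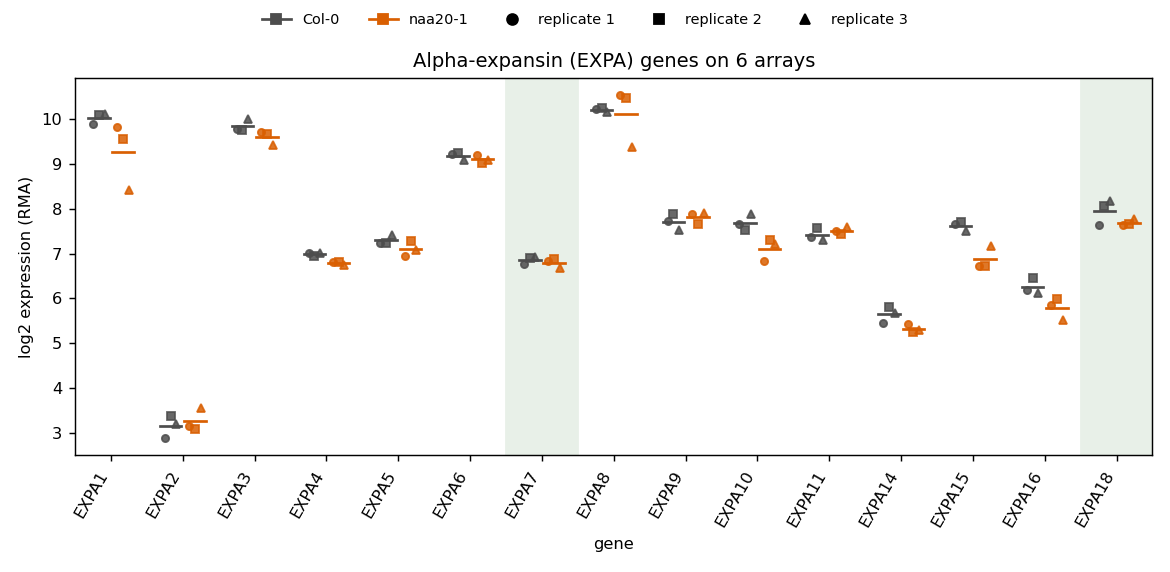
Log2 expression of the 15 EXPA genes (x axis) on each of 6 arrays. Points are samples, marked by replicate, and bars are group means, in grey for Col-0 and orange for naa20-1, with the root-hair genes shaded. EXPA15 and EXPA10 show separated groups, and EXPA1 and EXPA8 show naa20-1 replicate 3 far below the other arrays.

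Among the expansins, 12 of 15 differences were below 0, 5 members were at an unadjusted p under 0.05, all 5 with lower means in naa20-1, against 14.2% of all genes, and none was called. The median difference was -0.20. Measured against the Col-0 mean, the median over the 15 genes was -0.16, -0.18 and -0.25 in naa20-1 replicates 1, 2 and 3, and between -0.06 and 0.07 in the Col-0 arrays. The 3 naa20-1 arrays thus lay below all 3 Col-0 arrays in this family median. In 7 expansins (46.7%) every naa20-1 value lay below every Col-0 value, against 10.5% of all genes, and in none did they lie above, against 10.6%.

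EXPA15 (AT2G03090) came closest to the threshold. It stood at 7.66, 7.70 and 7.50 in Col-0 and at 6.73, 6.72 and 7.18 in naa20-1. All naa20-1 values lay below Col-0, with replicate 3 the nearest to it. The means were 7.62 ± 0.10 and 6.88 ± 0.26, a difference of -0.74 (SE 0.14, limma adjusted p = 0.0632), or 1.68-fold. EXPA15 was called without naa20-1 replicate 3 (adjusted p = 0.0258), without the dimmest 40% of genes (adjusted p = 0.0350) and with a variance trend and robust fit (adjusted p = 0.0124).

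EXPA10 (AT1G26770), an expansin known for its part in leaf growth, stood at 7.66, 7.53 and 7.88 in Col-0 and at 6.83, 7.30 and 7.21 in naa20-1. The groups did not overlap, and the difference was -0.58 (SE 0.15, limma adjusted p = 0.147). EXPA16 (AT3G55500) was at 6.18, 6.45 and 6.12 in Col-0 and at 5.86, 5.98 and 5.53 in naa20-1, without overlap (difference -0.46, SE 0.15, adjusted p = 0.211). EXPA14 (AT5G56320), linked to lateral root emergence, was at 5.45, 5.81 and 5.68 in Col-0 and at 5.42, 5.25 and 5.30 in naa20-1 (difference -0.32, SE 0.11, adjusted p = 0.262). Its lowest Col-0 value was only just above the highest naa20-1 value. EXPA4 (AT2G39700) had the narrowest spread of this group, with 7.02, 6.94 and 7.00 against 6.82, 6.80 and 6.74 (difference -0.20, SE 0.08, adjusted p = 0.322).

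EXPA1 (AT1G69530), known from guard cells and from growing leaf tissue, had the most negative difference of any expansin and also the widest scatter. It was at 9.89, 10.09 and 10.10 in Col-0 and at 9.83, 9.55 and 8.41 in naa20-1. Replicate 3 lay 1.28 below the mean of the other naa20-1 arrays. The difference was -0.76 with an SE of 0.33 (limma adjusted p = 0.355), and without replicate 3 it was -0.34. EXPA8 (AT2G40610) behaved alike on that array. It was at 10.22, 10.25 and 10.15 in Col-0 and at 10.53, 10.46 and 9.39 in naa20-1. Replicates 1 and 2 thus lay above Col-0 and replicate 3 below it, and the difference of -0.08 turned to 0.29 without replicate 3. EXPA3 (AT2G37640) was at 9.79, 9.75 and 10.00 in Col-0 and at 9.70, 9.66 and 9.41 in naa20-1 (difference -0.25, SE 0.12, adjusted p = 0.384).

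The remaining expansins outside root hairs showed overlapping groups. EXPA5, a brassinosteroid-responsive member, differed by -0.20 (SE 0.11) and EXPA6 by -0.08 (SE 0.09). EXPA9 and EXPA11 each differed by 0.10, with SEs of 0.12 and 0.10. EXPA2, known from germinating seeds, was at 2.88, 3.37 and 3.19 in Col-0 and at 3.16, 3.08 and 3.55 in naa20-1. All of these were below 3.76, the level under which 25% of the values of the genes tested lie, where signal cannot be told from background. The files give no detection calls, so the level of EXPA2 is a dim signal and no more.

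**Figure D2:**
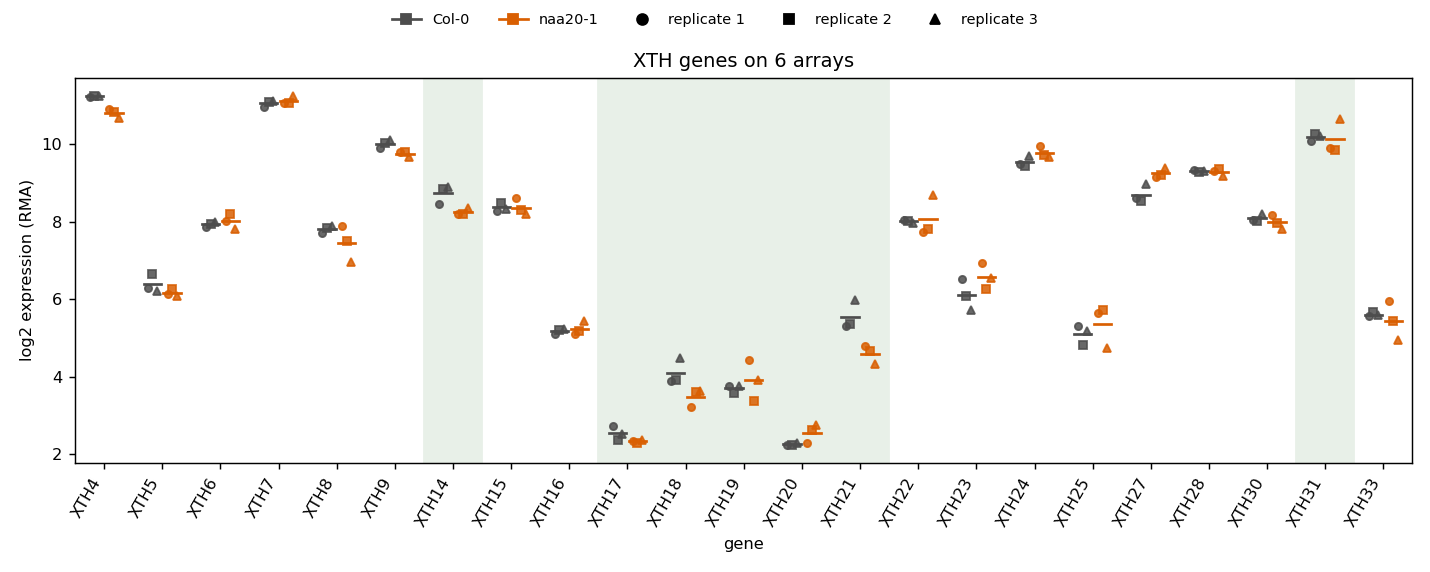
Log2 expression of the 23 XTH genes (x axis) on each of 6 arrays. Points are samples, marked by replicate, and bars are group means, in grey for Col-0 and orange for naa20-1, with the root genes shaded. XTH4, XTH14 and XTH21 lie lower in all naa20-1 arrays, XTH27 lies higher, and XTH22 and XTH31 show naa20-1 replicate 3 above the rest.

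Among the XTH genes the differences went both ways, with 13 of 23 below 0 and 10 above, none called, and a median of -0.03. Against the Col-0 mean, the family median was 0.00, -0.13 and -0.18 in naa20-1 replicates 1, 2 and 3, and between -0.07 and 0.06 in the Col-0 arrays, so replicate 1 lay among the Col-0 arrays. At an unadjusted p under 0.05 there were 6 XTH genes (26.1%), 5 with lower and 1 with a higher mean in naa20-1, against 14.2% of all genes. Groups did not overlap in 7 (30.4%), of which 6 were lower and 1 higher, against 21.0% of all genes. The median of EXPA was thus further below 0 than that of XTH. That gap between families was not tested, since the members were chosen with results of these data known.

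Among the 16 XTH genes outside the root members, groups did not overlap in 3 (18.75%), 2 lower and 1 higher, against 21.0% of all genes. XTH4 (AT2G06850), known from vascular and stem growth, stood at 11.22, 11.23 and 11.22 in Col-0 and at 10.90, 10.81 and 10.68 in naa20-1. The Col-0 values were almost identical and every naa20-1 value lay below them (difference -0.42, SE 0.09, limma adjusted p = 0.0886). XTH4 was called without the dimmest 40% of genes (adjusted p = 0.0418) and with a variance trend and robust fit (adjusted p = 0.00572). XTH9 (AT4G03210), known from shoot apices and stems, was at 9.90, 10.01 and 10.10 in Col-0 and at 9.78, 9.78 and 9.65 in naa20-1, also without overlap (difference -0.26, SE 0.09, adjusted p = 0.260).

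XTH27 (AT2G01850), known from forming vessels of leaf veins, went the other way. It was at 8.59, 8.52 and 8.96 in Col-0 and at 9.15, 9.21 and 9.39 in naa20-1. It was the only member with all naa20-1 values above Col-0, with a difference of 0.56 (SE 0.14, limma adjusted p = 0.127), or 1.47-fold. XTH27 was called only with a variance trend and robust fit (adjusted p = 0.0296), among the alternatives run. XTH28 and XTH30, of the same branch of the family, had overlapping groups. The difference was -0.03 (SE 0.09) for XTH28, a gene known from stamen growth, and -0.10 (SE 0.11) for XTH30.

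XTH7 (AT4G37800) was at 10.94, 11.08 and 11.11 in Col-0 and at 11.04, 11.04 and 11.24 in naa20-1. The groups overlapped (difference 0.07, SE 0.10, 95% interval from -0.16 to 0.29), so a 2-fold difference lies outside its interval. XTH6, XTH15 and XTH16 lay close to 0 as well, with differences of 0.07, -0.01 and 0.06 and SEs of 0.11, 0.13 and 0.11. XTH15 is a shade-responsive gene. XTH5 differed by -0.22 (SE 0.13) with overlapping groups.

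The touch-inducible gene TCH4, listed as XTH22 (AT5G57560), was at 8.05, 8.02 and 7.95 in Col-0 and at 7.74, 7.81 and 8.67 in naa20-1. Replicates 1 and 2 lay below all Col-0 arrays and replicate 3 above them, so the mean difference of 0.07 (SE 0.23) describes no single array, and without replicate 3 it was -0.23. XTH25 (AT5G57550), which lies next to XTH22 on chromosome 5, showed the opposite order, with 5.31, 4.82 and 5.18 in Col-0 and 5.64, 5.73 and 4.74 in naa20-1 (difference 0.27, SE 0.26). Replicates 1 and 2 were above Col-0 and replicate 3 below it.

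Within runs of neighbouring genes the differences had both signs. On chromosome 4, XTH24, XTH18 and XTH19 follow each other with no protein-coding gene between. XTH24 was at 9.49, 9.43 and 9.68 in Col-0 and at 9.94, 9.71 and 9.66 in naa20-1 (difference 0.24, SE 0.11), XTH18 differed by -0.61 (SE 0.19) and XTH19 by 0.20 (SE 0.24). XTH14 and XTH23 are also neighbours on chromosome 4. XTH14 differed by -0.48 (SE 0.13), while XTH23 was at 6.51, 6.08 and 5.73 in Col-0 and at 6.94, 6.25 and 6.55 in naa20-1 (difference 0.47, SE 0.23, overlapping groups). Neighbouring XTH genes resemble each other in sequence and the probe sequences were not used here, so some signal may be shared between copies.

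XTH8 and XTH33 are the last of the members outside roots. XTH8 was at 7.71, 7.82 and 7.89 in Col-0 and at 7.89, 7.51 and 6.96 in naa20-1 (difference -0.35, SE 0.21). XTH33, whose protein stays attached to the cell membrane, was at 5.55, 5.67 and 5.58 in Col-0 and at 5.94, 5.43 and 4.96 in naa20-1 (difference -0.16, SE 0.22). In XTH8 the naa20-1 arrays spread from the top of the Col-0 range to below it, and in XTH33 from above that range to below it.

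**Figure D3:**
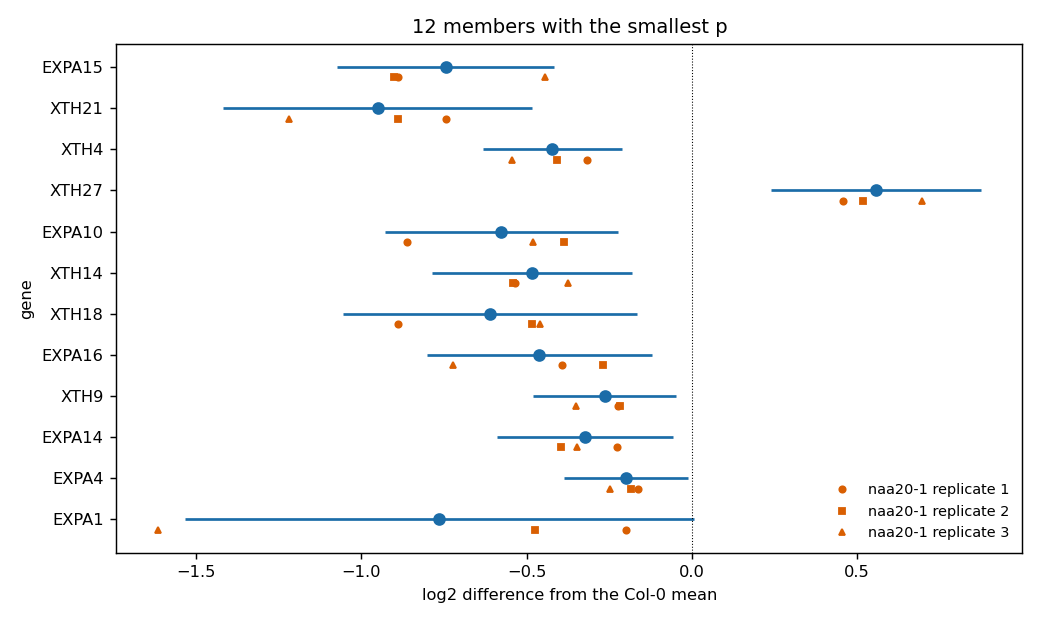
The 12 members with the smallest p. Blue points are log2 differences of group means with 95% intervals from limma, and orange marks are the single naa20-1 arrays, each minus the Col-0 mean. In 11 of the 12 every naa20-1 array lies below the Col-0 mean, and XTH27 lies above it.

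Among the 9 root members, 7 differences were below 0 and 2 above, none was called, and the median was -0.22, against -0.08 for the other 29. At an unadjusted p under 0.05 there were 3 root members (33.3%) and 8 of the others (27.6%), against 14.2% of all genes. Groups did not overlap in 4 root members (44.4%), all lower in naa20-1, and in 10 of the others (34.5%), against 21.0% of all genes, 10.5% lower. The 4 were XTH14, XTH17, XTH18 and XTH21. Of them, XTH17 was below the dim level given for EXPA2 on every array, and XTH18 on the naa20-1 arrays. The gap between root members and the rest was not tested, for the reason given for the families. With this division the gap lay within the XTH family. Its 7 root genes had a median of -0.22 and its 16 others 0.03. The 2 root-hair expansins had a median of -0.17 and the 13 others -0.20. EXPA14, linked to lateral root emergence (difference -0.32), was counted among these others, so the expansin gap depends on its placement. Of the 7 root XTH genes, 4 had a group mean below 3.76, the level given for EXPA2, against 0 of the 16 others. Both the root median and the root XTH median were the difference of XTH17, which lay below that level on every array. Without Col-0 replicate 1 the root median was -0.12, and without naa20-1 replicate 3 it was -0.31. Without the dimmest 40% of genes, only EXPA7, EXPA18, XTH14 and XTH31 were left of the root members, and their median was -0.17.

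XTH21 (AT2G18800), known for its part in primary root growth, had the largest difference of all members. It was at 5.31, 5.36 and 5.97 in Col-0 and at 4.81, 4.66 and 4.33 in naa20-1. The groups did not overlap, although the Col-0 arrays alone were spread widely. The means were 5.55 ± 0.37 and 4.60 ± 0.24, a difference of -0.95 (SE 0.20, limma adjusted p = 0.0855), or 1.93-fold. XTH14 (AT4G25820), known from elongating root cells and root hairs, was at 8.46, 8.83 and 8.88 in Col-0 and at 8.19, 8.18 and 8.35 in naa20-1, without overlap (difference -0.48, SE 0.13, adjusted p = 0.153). With a variance trend and robust fit, both were called (adjusted p = 0.0315 for XTH21 and 0.0450 for XTH14).

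XTH17 to XTH20 are a closely related group with root expression, and their signals were dim. XTH18 (AT4G30280) was at 3.89, 3.92 and 4.49 in Col-0 and at 3.21, 3.62 and 3.64 in naa20-1, so its naa20-1 values all lay below that level of 3.76 (difference -0.61, SE 0.19, adjusted p = 0.206). XTH17 was at 2.74, 2.38 and 2.54 against 2.35, 2.30 and 2.36, and XTH20 at 2.25, 2.24 and 2.30 against 2.28, 2.64 and 2.75. Both stayed below that level on every array. XTH19 was at 3.78, 3.59 and 3.78 in Col-0 and at 4.44, 3.38 and 3.91 in naa20-1, with overlapping groups.

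XTH31 (AT3G44990), known from the root response to aluminium, was at 10.07, 10.25 and 10.20 in Col-0 and at 9.90, 9.83 and 10.65 in naa20-1. As in XTH22, replicates 1 and 2 lay below Col-0 and replicate 3 above it. The mean difference was -0.05 (SE 0.21), and it was above 0 without naa20-1 replicate 1 (0.07) or replicate 2 (0.10).

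The root-hair expansins showed no separation. EXPA7 (AT1G12560) was at 6.76, 6.90 and 6.93 in Col-0 and at 6.83, 6.89 and 6.68 in naa20-1 (difference -0.07, SE 0.10, 95% interval from -0.29 to 0.16). EXPA18 (AT1G62980) was at 7.63, 8.06 and 8.18 in Col-0 and at 7.64, 7.66 and 7.77 in naa20-1 (difference -0.27, SE 0.15, 95% interval from -0.61 to 0.07). Both overlapped, EXPA18 through Col-0 replicate 1. That Col-0 array was also the lowest of its group in the sum of the root-hair markers.

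Marker genes of roots and leaves were measured on the same arrays. Of 10 root-hair markers, none was called, where 1.15% of all genes were. There 8 differences were below 0, against 48.8% of all genes, and the median was -0.15. At an unadjusted p under 0.05 in limma there were 3 (30%), against 14.2% of all genes. In 3 (30%) all naa20-1 values lay below Col-0, against 10.5% of all genes. The sum of their linear levels ran from 1359 to 1643 in Col-0 and from 1304 to 1376 in naa20-1. LRX1, a wall protein of growing root hairs, differed by -0.42 (SE 0.12, adjusted p = 0.168) and PRP3, another root-hair wall protein, by -0.45 (SE 0.13, adjusted p = 0.172). Of 13 other root markers, none was called, 9 differences were below 0 and the median was -0.40. At an unadjusted p under 0.05 in limma there were 7 (53.8%), 6 lower and 1 higher. All naa20-1 values lay below Col-0 in 6 (46.2%) and above in 1 (7.69%), against 10.5% and 10.6% of all genes. Their summed levels ran from 7198 to 7400 in Col-0 and from 6310 to 6899 in naa20-1, without overlap. The lower values came mainly from CASP1 to CASP5, 5 related genes of the Casparian strip, all below 0 with a median of -0.59. Their summed levels ran from 2803 to 3005 in Col-0 and from 1907 to 2344 in naa20-1. In all 5 every naa20-1 value lay below Col-0, against 10.5% of all genes. This split of the 13 was not among the planned lists. The other 8 were divided, with 4 below and 4 above 0, a median of 0.04 and summed levels that overlapped, from 4194 to 4597 in Col-0 and from 4101 to 4555 in naa20-1. TIP2;3, a root aquaporin, differed by -0.69 (SE 0.12, adjusted p = 0.050002) and CASP4 by -0.59 (SE 0.13, adjusted p = 0.102). PHO1, a phosphate exporter of the root vasculature named after its values were seen, was higher on all naa20-1 arrays (difference 0.27, SE 0.10, adjusted p = 0.281). Of 9 leaf markers, none was called, 7 differences were below 0 and the median was -0.05, with the largest distance from 0 in the carbonic anhydrase gene CA1 (-0.17, SE 0.08, adjusted p = 0.407). For LHCB2.1 the difference was -0.15 (SE 0.11, adjusted p = 0.589). No leaf marker was at an unadjusted p under 0.05, and in 2 (22.2%) all naa20-1 values lay below Col-0. The Casparian strip genes and most root members lay lower in naa20-1, while the other non-hair root markers went both ways. Differences below 0 were not particular to roots: they were also found in 7 of 9 leaf markers and 10 of the 13 expansins outside root hairs. The markers' part in the root members' values was not tested. The log2 values start at 1.75 and the files give no detection calls, so a value above 0 does not show that a marker was present. RHD6 and NRT2.1 had means below 3.76 in both groups, where signal cannot be told from background. The means of all other markers, of roots and of leaves, lay above that level, which is a percentile and no detection limit.

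**Figure D4:**
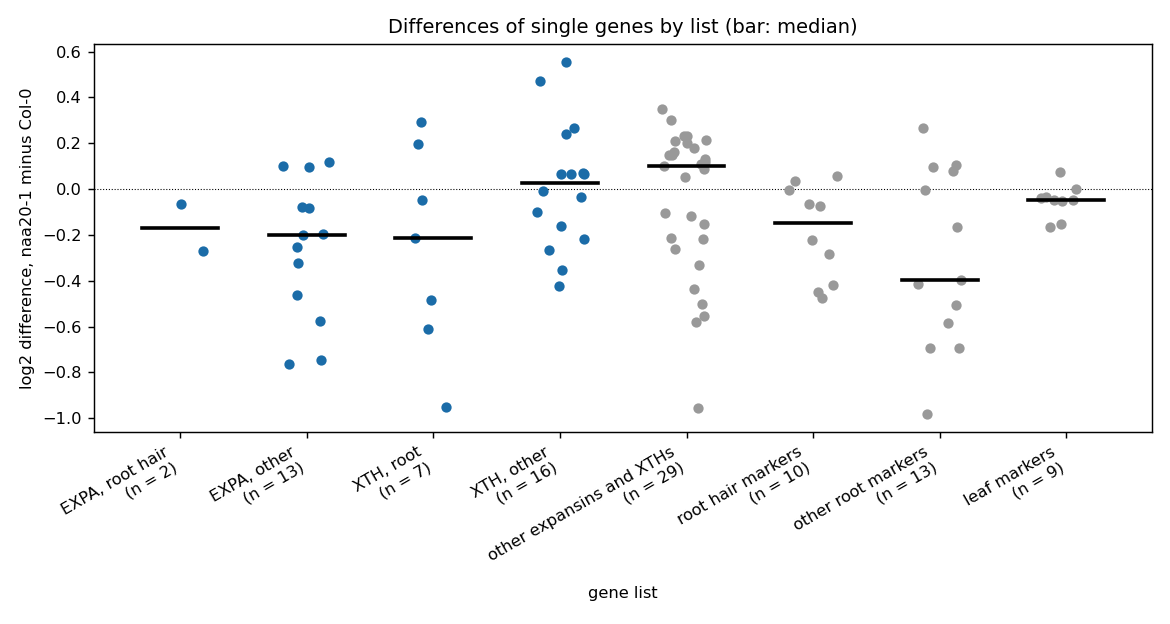
Log2 differences, naa20-1 minus Col-0, of single genes (points) by list (x axis), with the median as a bar. Members are blue and other lists grey. The medians of the EXPA and root XTH lists lie near -0.2, that of the other XTH genes near 0 and that of the non-hair root markers, which include CASP1 to CASP5, at -0.40.

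Among the members, naa20-1 replicates 1 and 3 both lay further from the mean of the other arrays of their group than replicate 2. The median absolute distance was 0.19, 0.12 and 0.20 in replicates 1, 2 and 3, against 0.13, 0.13 and 0.15 over all genes. Replicate 3 was the lowest of the 6 arrays for 17 members and the highest for 9. Over all genes it was lowest for 21.7% and highest for 20.7%. In 7 members it lay over 0.5 from the mean of the other naa20-1 arrays, a distance chosen after the values were seen. These were EXPA1, EXPA8, XTH8, XTH25 and XTH33, where it was lower, and XTH22 and XTH31, where it was higher. For comparison, 6 members lay that far off on naa20-1 replicate 1, 3 on replicate 2 and from 0 to 3 on a Col-0 array. Over all genes, 6.81% lay that far off on naa20-1 replicate 3 and from 3.13% to 4.36% on the other arrays.

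**Figure D5:**
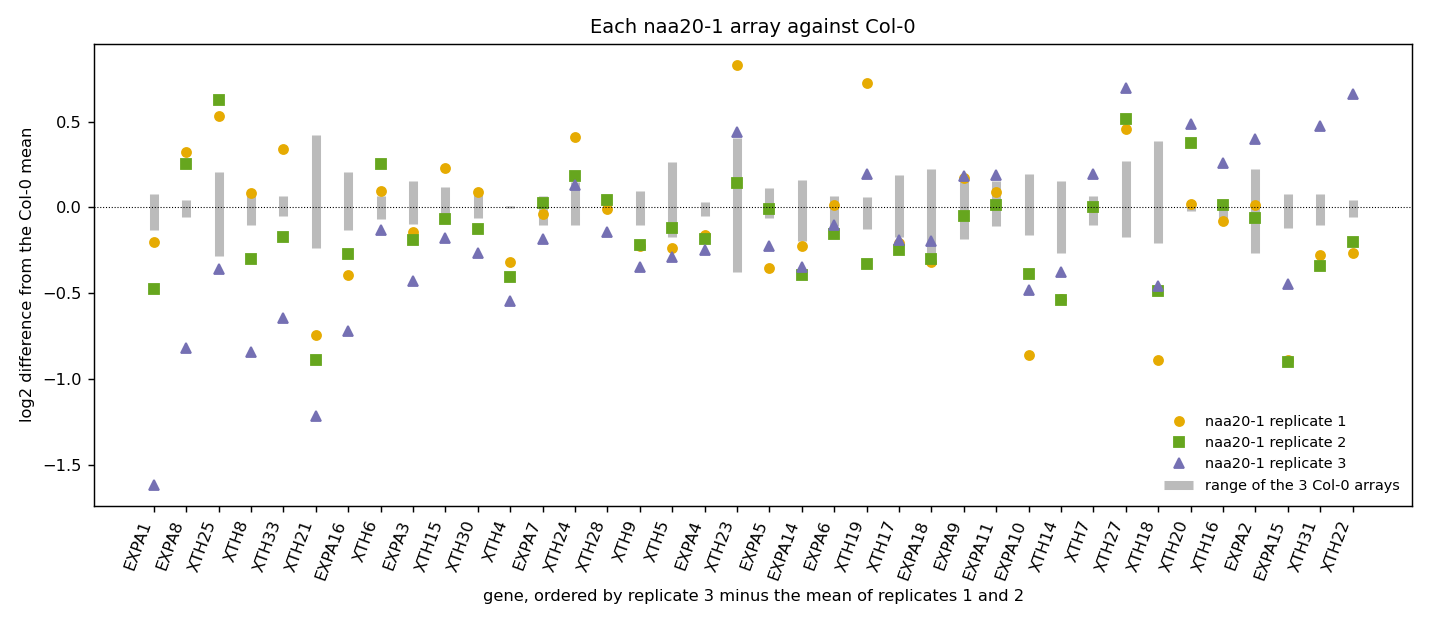
Each naa20-1 array minus the Col-0 mean, on the log2 scale, for the 38 members, ordered by replicate 3 minus the mean of replicates 1 and 2. Grey bars are the range of the 3 Col-0 arrays. EXPA1 and EXPA8 stand at the left end, where replicate 3 is lowest, and XTH31 and XTH22 at the right end, where it is highest.

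The other expansin and XTH genes on the array, 29 in all, had 1 called gene, where 1.15% of all genes were called. EXLA1 (AT3G45970), of the expansin-like A group whose action on walls has not been shown, fell from 6.85, 6.87 and 7.01 in Col-0 to 6.36, 6.39 and 6.48 in naa20-1 (difference -0.50, SE 0.09, limma adjusted p = 0.0498). All naa20-1 values lay below Col-0, but the call sat at the threshold. It was lost with all probe sets kept (adjusted p = 0.0516), with the replicate block (0.110) and without any single sample (0.0807 to 0.171). It held with repeated quantile normalization and with median centring (adjusted p = 0.0498 each). The call also held without the dimmest 40% of genes (0.0215) and with a variance trend and robust fit (0.0337). XTH13 was at 5.71, 6.18 and 6.70 in Col-0 and at 5.06, 5.29 and 5.36 in naa20-1 (difference -0.95, SE 0.23, adjusted p = 0.125). It lies next to XTH25, which had a difference above 0. Over the 29 genes, 17 differences were above 0 and 12 below, with a median of 0.10. At an unadjusted p under 0.05 in limma there were 7 (24.1%), 6 lower and 1 higher, against 14.2% of all genes. Groups did not overlap in 9 (31.0%), against 21.0% of all genes. Of these, 6 were lower (20.7%, against 10.5% of all genes) and 3 higher (10.3%, against 10.6%).

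Genes that make or trim xyloglucan, the substrate of XTH enzymes, lay close to 0. None of 13 was called, where 1.15% of all genes were. Here 8 differences were above and 5 below 0, against 48.8% of all genes below 0, and the median was 0.01. BGAL10, a galactosidase that trims xyloglucan, was at 6.55, 6.62 and 6.71 in Col-0 and at 6.84, 6.92 and 6.88 in naa20-1 (difference 0.25, SE 0.09, limma adjusted p = 0.235). XYL1, the xylosidase of the same route, differed by -0.24 (SE 0.08, adjusted p = 0.248). The groups of both were separate and in opposite directions. Groups did not overlap in 3 of the 13 (23.1%), near the 21.0% of all genes.

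Of 9 genes of acid growth and growth control, none was called, where 1.15% of all genes were, and the median was -0.02. Groups did not overlap in 2 (22.2%), PIF4 and PRE1, near the 21.0% of all genes. PIF4, a light- and temperature-regulated transcription factor of growth, was at 9.01, 9.04 and 9.09 in Col-0 and at 9.47, 9.56 and 9.47 in naa20-1 (difference 0.45, SE 0.08, limma adjusted p = 0.0535). PRE1, a small helix-loop-helix protein that promotes elongation, was at 6.96, 6.83 and 7.28 in Col-0 and at 6.30, 6.29 and 6.61 in naa20-1 (difference -0.62, SE 0.15, adjusted p = 0.112). PIF4 values lay above and PRE1 values below Col-0 on every naa20-1 array. The plasma membrane proton pumps AHA1 and AHA2, which acidify the wall, differed by -0.02 (SE 0.09) and -0.17 (SE 0.10).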

How the data were processed

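The submitters' processing notes name RMA, and the deposited table holds log2 values that the authors made with it, 1 per probe set, from arrays hybridised with biotinylated cRNA per the labels' protocols. No source used here gives the array type, the software or the probe set definition. Once sorted, 5 arrays held the same values, whereas naa20-1 replicate 1 differed from this set by up to 0.0019. Locus codes were matched to the gene table of assembly TAIR10.1 (27241 of 27827), used for names and neighbours only. NAA20 was assigned to AT1G03150 from general knowledge.

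Genotype was the only term of a limma model (version 3.58.1, R 4.3.3; lmFit, then eBayes) of the deposited values, 3 arrays against 3, with Benjamini-Hochberg adjustment over all 27241 genes. The procedure was tested on simulated data. Members and lists were chosen with earlier results of these data known, so lists are described by counts and medians. Named were the 12 members with the smallest p, the 2 highest and 2 lowest of each family, all root members, and the called or 2 smallest-p genes of each further list. The choice of further members to name was made with their values known. The titles' replicate numbers were not taken as pairing the samples.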

Additional observations from a re-analysis of the deposited data

How the results depend on the processing

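Alternatives were a repeated quantile normalization, median centring, removal of the dimmest 40% of genes (32 members left), a variance trend with robust fit, all probe sets kept, a block for the replicate number, and the removal of single samples. Members called numbered 0 as reported, 2 without dim genes (EXPA15, XTH4), 5 with the trend and robust fit (EXPA15, XTH4, XTH14, XTH21, XTH27) and 0 to 1 with a sample left out, against 1.15%, 2.61%, 2.93% and 0.239% to 0.723% of all genes. The dim filter left 16344 genes to test. Why the counts differ between settings was not tested. Members at an unadjusted p under 0.05 numbered 8 to 14 with a sample left out. With a sample left out, the EXPA median ran from -0.26 to -0.16, the XTH median from -0.07 to -0.01, the root median from -0.31 to -0.12 and that of the other members from -0.13 to -0.03. Narrower and wider root lists, of 7 and 11 genes, gave -0.22 each. The narrower median was again the difference of the dim gene XTH17, and the wider one that of XTH5. Their agreement is thus no independent check. Counts below 0, taken without naa20-1 replicate 1 or 3 as a check added after seeing the data, were 25 and 24 of 38, and counts of members with all naa20-1 values below Col-0 were 16 and 15.

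Among the members and the other named genes, directions turned only for 10 members and AHA1, none of them called, when a sample was left out. With 1 sample left out their differences ran from -0.025 to 0.23 for EXPA2, from -0.28 to 0.29 for EXPA8, from -0.019 to 0.17 for XTH6, from -0.12 to 0.080 for XTH15, from -0.033 to 0.14 for XTH16, from -0.068 to 0.46 for XTH19, from -0.23 to 0.23 for XTH22, from -0.075 to 0.019 for XTH28, from -0.31 to 0.10 for XTH31, from -0.41 to 0.083 for XTH33 and from -0.063 to 0.026 for AHA1. The turn came without naa20-1 replicate 3 for EXPA2, EXPA8, XTH15, XTH16, XTH22, XTH28 and XTH33, without naa20-1 replicate 1 for XTH19 and XTH31, without naa20-1 replicate 2 for XTH6, XTH15 and XTH31, without Col-0 replicate 1 for EXPA2 and AHA1 and without Col-0 replicate 2 for XTH15. With the replicate block, 0 members were called and 11 were at an unadjusted p under 0.05. Deviations of same-numbered samples correlated at 0.02, 0.06 and 0.01, so the titles' numbers do not show a pairing. The sample descriptions number the arrays differently and share only 2 numbers between genotypes, whose pairs correlated at 0.02 and -0.01. With the block, all genes called went from 104 higher and 209 lower to 61 and 129. The trend and robust fit gave 311 and 486. Of the genes outside the members, NAA20 and EXLA1 stayed called without dim genes (adjusted p = 0.0241 and 0.0215). They also stayed called with the trend and robust fit (0.00673 and 0.0337). TIP2;3 and PIF4 were newly called without dim genes (adjusted p = 0.0271 and 0.0215). CASP1, TIP2;3, PIF4, PRE1 and XTH13 were newly called with the trend and robust fit (0.0123, 0.00374, 0.00512, 0.0433 and 0.0482).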
